A study of Mus musculus with 4 samples.

Results

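The neighbourhood of Fbn1 and Fgf7 is the stretch of mouse chromosome 2 from 125000000 to 126000000 on the build mm9, and its members are the NR6A1 peaks with a midpoint there. It was chosen by peak number, as one of the 3 stretches of 1 Mb with the most peaks in 2 deposited peak lists. It held 80 of the 37667 peaks in both lists, 46 in replicate 1 and 34 in replicate 2. Its number of peaks is therefore a description and is not tested. Of 27 regions with peaks in both replicates, 20 lay outside the rounded spans of both genes, in 74.0% of the neighbourhood's length. These included clusters below Fbn1 and between the genes, and a weak region near the Fbn1 start. Those inside the spans lay near the rounded start of Fgf7 and toward the rounded 3′ end of Fbn1. Most of the Fbn1 body had peaks in replicate 1 only. Even so, 30.8% of the regions in its span were in both lists, close to the 31.7% of all regions.

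NR6A1, also called germ cell nuclear factor, is an orphan nuclear receptor that binds DNA at the nuclear receptor core AGGTCA, often as a direct repeat without a spacer, and is known mainly as a repressor in embryos and germ cells. The peaks came from chromatin immunoprecipitation followed by sequencing (ChIP-seq), which locates a protein on the genome. The cells were immortalized monoclonal C57BL/6 mouse mesenchymal stem cells, stromal cells that can form bone, fat and cartilage, with floxed Dicer alleles and called Dicer wild type. In the 2 NR6A1 samples the cells carried a pMMP-puro retrovirus for Flag- and HA-tagged NR6A1, and in the 2 vector samples the empty retrovirus. All 4 were kept under puromycin selection and precipitated with the same antibody to HA. The peaks are thus those of a tagged protein made from a retrovirus in clonal cells. The labels do not say whether the replicates were separate cultures or came from the same clone. Values of the vector samples were not analysed here, and the signal of the antibody without the tagged protein at these sites is not given. Peak lists hold no expression values, so neither the cell type nor the levels of Fbn1 and Fgf7 were checked.

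Fbn1 encodes fibrillin-1, the large glycoprotein that forms extracellular microfibrils, holds latent TGF-beta complexes in the matrix and is mutated in Marfan syndrome. Fgf7, also called keratinocyte growth factor, encodes a growth factor that stromal cells secrete and that acts on the receptor FGFR2b of neighbouring epithelial cells. Both are typical products of fibroblasts and other stromal cells. The RefSeq gene table of GRCm38, used only for names and order, lists 7 protein-coding genes whose lower end lies between the lower ends of Fbn1 and Fgf7. They are Cep152, a centriole protein, Shc4, a signalling adaptor, Eid1, Secisbp2l, Cops2, a subunit of the COP9 signalosome, Galk2, a sugar kinase, and Fam227b. Fam227b overlaps Fgf7 in that table and, on the minus strand, starts beyond it next to Dtwd1, so peaks in the Fgf7 span cannot be given to Fgf7 alone. Dut lies next to Fbn1 on its other side, and Dtwd1 next to Fgf7.

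On mm9 the gene spans are known here only as rounded positions, 125.13 to 125.33 Mb for Fbn1 and 125.86 to 125.92 Mb for Fgf7. Fbn1 is transcribed from the minus strand in the RefSeq promoter table, so its start is at the upper end and its 3′ end at the lower end. Fgf7 is on the plus strand and starts at the lower end of its span. The 250 bases before each start are shown because both replicates had a peak at the rounded start of Fgf7 and 1.77 kb from that of Fbn1. They are RefSeq sequences of GRCm38.p6, from chr2:125506439-125506688 on the minus strand for Fbn1 and chr2:126034408-126034657 on the plus strand for Fgf7. Those positions belong to another build and cannot be set beside the mm9 peaks. Capitals mark AGGTCA.
Fbn1: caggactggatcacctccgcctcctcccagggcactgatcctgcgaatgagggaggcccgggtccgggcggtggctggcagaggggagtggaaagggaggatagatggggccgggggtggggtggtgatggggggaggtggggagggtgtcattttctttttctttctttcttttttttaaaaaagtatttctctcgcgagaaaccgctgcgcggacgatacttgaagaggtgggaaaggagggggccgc
Fgf7: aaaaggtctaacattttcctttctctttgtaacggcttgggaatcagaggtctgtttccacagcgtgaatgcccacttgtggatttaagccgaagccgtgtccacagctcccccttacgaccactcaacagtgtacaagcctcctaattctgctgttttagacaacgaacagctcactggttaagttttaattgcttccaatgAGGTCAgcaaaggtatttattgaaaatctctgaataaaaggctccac
The Fgf7 stretch held AGGTCA once, on the gene's strand, starting 47 bases before the first base of the gene, and the Fbn1 stretch held none on either strand. Of 32851 promoters in the table, read over 300 bases from 250 before to 50 after the start, 16.3% held AGGTCA on either strand. The longer TCAAGGTCA, which contains AGGTCA, was in 0.423% of them and the direct repeat without spacer in 0.00609%, and neither was in the Fbn1 or the Fgf7 promoter. Promoters were held for 10 of the 11 genes from Dut to Dtwd1, all but Eid1. Besides Fgf7, those of Fam227b and Dtwd1 held AGGTCA, at the same 6 bases between these neighbouring genes. These matches describe letters in a window and are not evidence of a site. Sequence under the peaks themselves was not analysed here.

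Overlapping peaks of the 2 lists, sharing at least 1 bp, were taken as partners and merged into regions. The neighbourhood held 53 regions, of which 27 were in both lists, 19 in replicate 1 only and 7 in replicate 2 only. Regions in both lists were thus 50.9% of those here (95% Wilson interval 37.9 to 63.9%), against 31.7% of the 28444 regions of the whole lists. Of the 46 replicate 1 peaks 27 had a partner, or 58.7% (44.3 to 71.7%), against 42.7% of the whole list. In replicate 2, 27 of 34 had one, or 79.4% (63.2 to 89.7%), against 56.0% of the whole list. These intervals cover counting error over neighbouring peaks of 1 library each, and no test over samples can be made with 2 samples of 1 group. They also treat peaks as independent, whereas shared regions lay in clusters and others in runs, so they may be too narrow.

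Dense stretches in general had shares above those of the whole lists. In the 98 stretches of 1 Mb with at least 20 peaks in each list, the median share with a partner was 55.0% in replicate 1 and 63.6% in replicate 2. The share here exceeded that of 60 of them in replicate 1 and of 93 in replicate 2. Set beside the 2 denser stretches, the neighbourhood had a lower share with a partner in replicate 1 and a higher one in replicate 2. From 5 to 6 Mb on chromosome 19, 72.9% of 48 replicate 1 peaks (59.0 to 83.4%) and 68.9% of 45 replicate 2 peaks (54.3 to 80.5%) had one. From 129 to 130 Mb on chromosome 8 the shares were 62.8% of 43 (47.9 to 75.6%) and 68.3% of 41 (53.0 to 80.4%). The intervals of the 3 stretches overlap in both replicates. The next stretches held 71 peaks, against the 80 here.

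**Figure D1:**
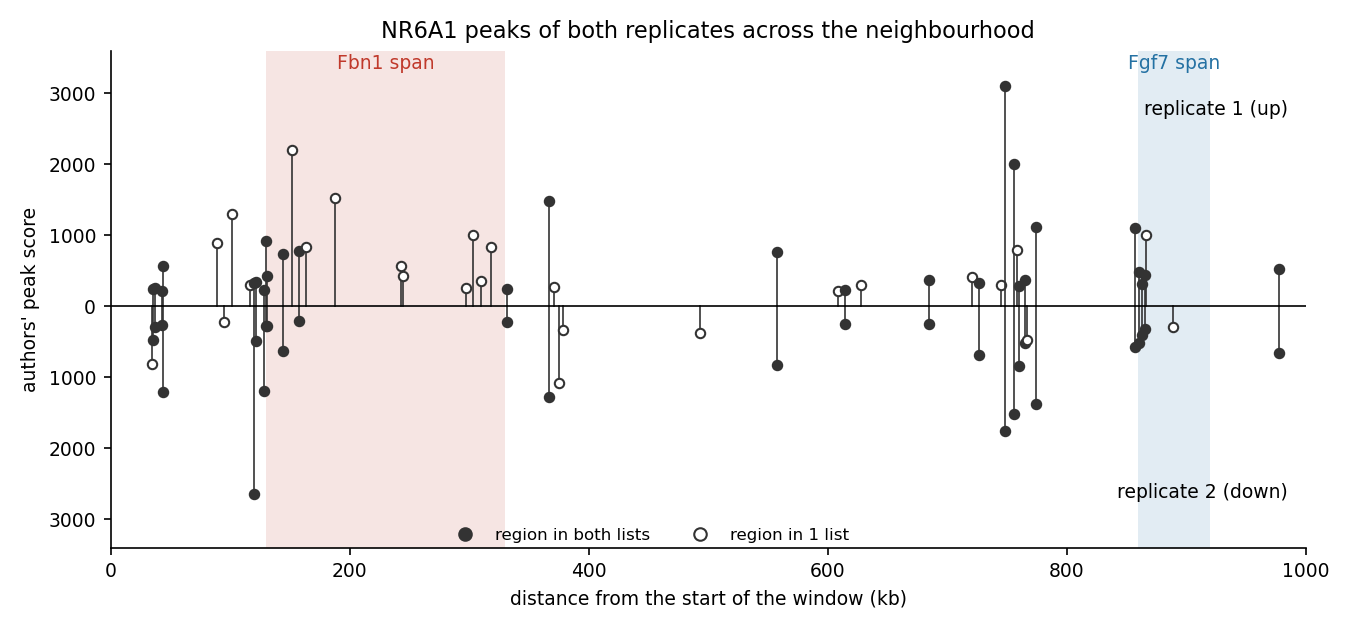
Authors' peak score (replicate 1 upward, replicate 2 downward) of each of the 53 regions against distance from the start of the 1-Mb window in kb, with filled points for regions in both lists, open points for regions in 1 list, and the rounded spans of Fbn1 and Fgf7 shaded. Downward stems are missing over most of the Fbn1 span, where 8 regions in a row were in replicate 1 only.

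The authors' score of a peak was taken as the log-transformed p-value of the peak caller MACS, higher for smaller p-values. It carries the depth and background of its own library, and read depth is unknown. In the neighbourhood the score had a median of 432 in replicate 1 (quartiles 300 and 876) and 498 in replicate 2 (286 and 835), against 417 and 394 in the whole lists. A score of at least 1000 was reached by 10 of 46 replicate 1 peaks, or 21.7% (12.3 to 35.6%), against 15.9% of the whole list. In replicate 2, 8 of 34 peaks reached it, or 23.5% (12.4 to 40.0%), against 14.0%. Both intervals include the share of the whole list.

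Peaks were spread unevenly over the 1 Mb. The second 100 kb, which holds the 3′ end of Fbn1, had 12 replicate 1 peaks, 7 replicate 2 peaks and 7 regions in both lists. The eighth 100 kb, between the genes, had 9, 7 and 6. By contrast the fifth 100 kb had 0 and 1 peaks, and no region in both lists. The longest stretch free of either list's peaks ran from 125379114 to 125492775, over 114 kb. Of the 27 regions in both lists, 18 lay in 4 clusters, in which each followed the one before it within 10 kb. There was a cluster of 4 below Fbn1, one of 5 at its rounded 3′ end, one of 5 between the genes and one of 4 near the rounded start of Fgf7.

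The Fbn1 span held 13 replicate 1 peaks and 3 replicate 2 peaks, which made up 13 regions. Of these, 4 were in both lists, or 30.8% (12.7 to 57.6%), close to the 31.7% of the whole lists, and 9 were in replicate 1 only. The share of replicate 1 peaks with a partner was likewise 4 of 13, and its interval includes the 42.7% of the whole list. In the rest of the neighbourhood it was 69.0% of 29 peaks (50.8 to 82.7%). The intervals of the 2 parts overlap, and the difference was not tested. All 3 replicate 2 peaks in the span had a partner. Another replicate 2 peak, at 125129666 to 125130253, overlapped a replicate 1 peak of the span, but its own midpoint fell 41 bp below the rounded end.

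All 4 shared regions of the Fbn1 span lay in the first 30 kb from its rounded 3′ end. The first scored 917 in replicate 1, at 125129698 to 125130360, and 282 in replicate 2. Next to it, at 125130389 to 125131076, the scores were 425 and 274. Inside the gene, the region at 125143854 to 125144577 had 745 and 623, and that at 125156991 to 125157797 had 774 and 206. In each of the 4 the score of replicate 1 was the higher, by 1.19-fold to 3.75-fold, and 2 of them differed by more than 2-fold. The 206 of the last is close to the lowest score of the replicate 2 list, 200.04, and only 2.67% of that list scored lower.

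The strongest peak in the Fbn1 span had no partner. It was a replicate 1 peak 1035 bp wide at 125150882 to 125151916, with a score of 2205 that exceeded 96.9% of the replicate 1 list. It lay between the last 2 of the shared regions, and the nearest replicate 2 peak was 5.28 kb away. Beyond those, the other 170 kb of the Fbn1 span held 8 regions, all in replicate 1 only. From 125157686 to 125331510, over 174 kb, the replicate 2 list had no peak.

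The 8 regions of that run lay at 125162961 to 125318727, with scores from 256 to 1525 and a median of 699. Their highest was at 125187206 to 125187961, followed by a peak at 125302979 to 125303503 with 1003. The peak at 125297438 to 125297832, with 256, was the lowest. The others scored 834 at 125162961 to 125163570, 564 at 125242972 to 125243519, 423 at 125244307 to 125244837, 355 at 125309903 to 125310545 and 840 at 125318021 to 125318727. Of the 8 scores 6 were above the median of the replicate 1 list, and 7 of the 8 peaks lay over 10 kb from any replicate 2 peak. Such runs are not particular to Fbn1. The whole lists held 122 runs of 8 or more regions in replicate 1 only, with 10.2% of all such regions, and the longest held 27. Since no reads per peak were given, absence from replicate 2 and a signal slightly below its threshold cannot be told apart.

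**Figure D2:**
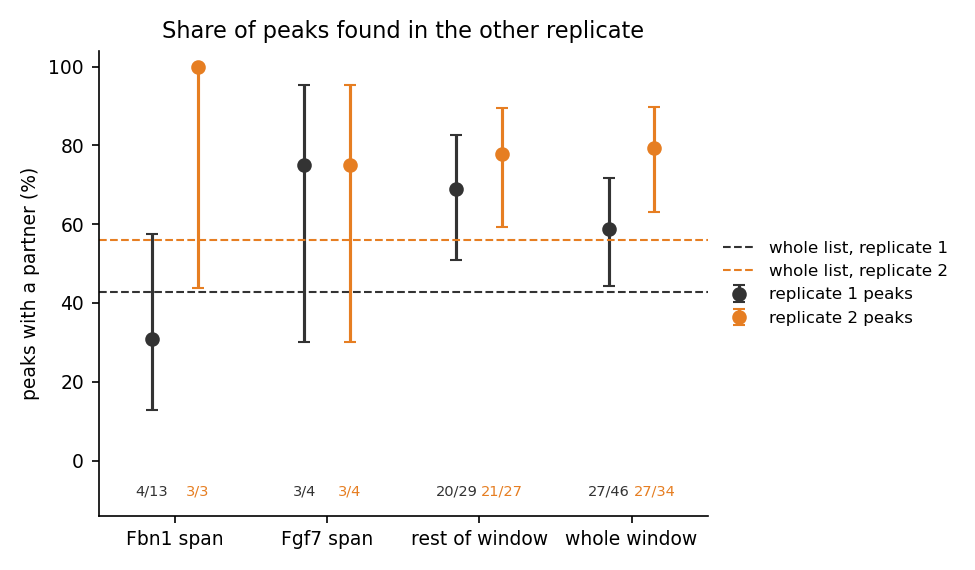
Percent of peaks with a partner in the other list, for the Fbn1 span, the Fgf7 span, the rest and the whole window, with 95% Wilson intervals as bars, the counts at the foot and the whole lists as dashed lines. The Fbn1 span has 4 of 13 replicate 1 peaks with a partner but 3 of 3 replicate 2 peaks, and the intervals of both gene spans are wide.

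A weak region found in both lists was the nearest to the rounded start of Fbn1. It lay at 125331516 to 125331982 in replicate 1 and 125331511 to 125332030 in replicate 2, 1.77 kb above the rounded upper end, and counts with the rest of the neighbourhood. Its scores were 239 and 215, which exceeded 13.6% of the replicate 1 list and 6.55% of the replicate 2 list. The midpoints of the partners were 21.5 bp apart. Both scores were thus low in the order of their lists. The start itself is known here only to the nearest 10 kb, so an overlap with the promoter printed above was not measured.

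Just below the 3′ end of Fbn1, 3 shared regions had the opposite order of scores. At 125119645 to 125120271 the replicate 1 peak had a score of 327 and its replicate 2 partner 2647, which is 8.09-fold higher and above 98.0% of the replicate 2 list. This was the highest replicate 2 score of the neighbourhood. At 125121104 to 125121593 the scores were 347 and 488. The region whose replicate 1 peak was at 125128406 to 125128831 had 233 there and 1188 in replicate 2, and its replicate 2 peak was 1268 bp wide against 426 bp. It lay 1.68 kb outside the rounded Fbn1 end, whereas the first shared region of Fbn1, with its score higher in replicate 1, lay at that end. With the gene spans widened by 10 kb at each end, the Fbn1 part held 7 shared regions in place of 4. Within 11.6 kb at this gene end, 3 shared regions thus scored higher in replicate 2 and 2 in replicate 1.

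Farther below Fbn1, a cluster of 4 shared regions lay within 9.20 kb at 125035488 to 125044686, and all 4 scored higher in replicate 2. The strongest scored 1212 in replicate 2, at 125043643 to 125044686, against 563 in its replicate 1 partner. The other 3 had replicate 1 scores of 218 to 259 and replicate 2 scores of 260 to 473. Over the 7 shared regions below the Fbn1 span, the log2 of the score in replicate 1 over that in replicate 2 had a median of -0.97 and none was higher in replicate 1. In the Fbn1 span it was 1.17, with 4 of 4 higher in replicate 1. Over all 9223 partner pairs of the lists the median was 0.00 with an SD of 1.12, and 49.8% were higher in replicate 2. The change of sign falls near the rounded gene end, was seen in the data and was not tested. That end is known here only to the nearest 10 kb. The shared regions next to it therefore cannot be placed inside or outside Fbn1.

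**Figure D3:**
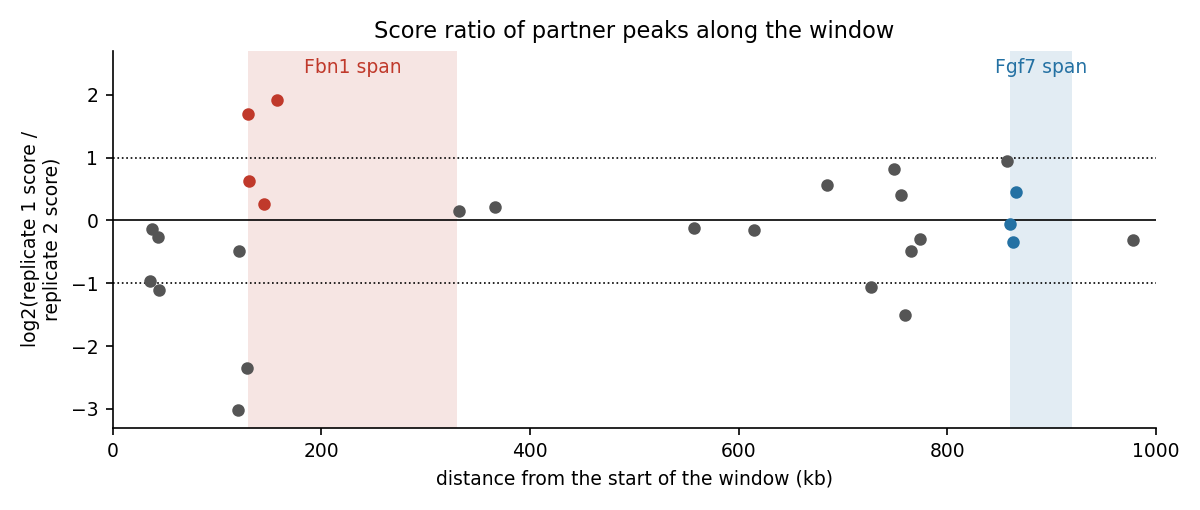
Log2 of the replicate 1 score over the replicate 2 score for each of the 27 regions in both lists, against distance from the window start in kb, with shaded gene spans and dotted lines at 2-fold. All 7 regions below the Fbn1 span lie under 0 and the 4 in the span lie above it, while the 3 in the Fgf7 span lie near 0.

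Near the rounded start of Fgf7 the 3 shared regions of the span were alike in position and in score. That start is known here only to the nearest 10 kb, so these regions cannot be placed inside or outside Fgf7. Of the 5 regions in the span, 3 were in both lists, or 60.0% (23.1 to 88.2%). That interval includes the 31.7% of the whole lists. All 3 lay in the first 6 kb of the span. The one at the rounded start scored 489 in replicate 1, at 125860061 to 125860686, and 509 in replicate 2, at 125860018 to 125860585. The second, at 125863012 to 125863523, had 317 and 404, and the third, at 125865339 to 125865865, had 439 and 322. These 3 pairs were within 1.36-fold of each other, and their midpoints within 72.0 bp. Their scores exceeded 33.7 to 58.1% of the replicate 1 list and 37.3 to 63.1% of the replicate 2 list, which is the middle of each. Over all 9223 pairs of the lists, 65.4% had scores within 2-fold and 81.3% had midpoints within 100 bp.

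Another shared region lay 2.73 kb before the rounded Fgf7 start, at 125856874 to 125857690 in replicate 1, and had the highest scores of this cluster, 1108 and 574. Together the 4 spanned 9.17 kb. Replicate 1 had a further peak with a score of 1008 at 125866303 to 125866859, without a partner but only 446 bp from the nearest replicate 2 peak. The one other peak of the span was in replicate 2 only, at 125888622 to 125889127, with a score of 290. Beyond it neither list had a peak until 125977535, so the rounded 3′ end of Fgf7 had none. Of the 4 peaks of each list in the span, 3 had a partner, or 75.0% (30.1 to 95.4%). The whole lists had 42.7% in replicate 1 and 56.0% in replicate 2, and the interval includes both.

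The strongest shared sites of the neighbourhood belonged to neither gene span. Between Fbn1 and Fgf7, 5 shared regions lay within 26.6 kb at 125747851 to 125774489. The first scored 3100 in replicate 1, at 125748220 to 125749464, a value shared by 239 peaks of that list, and 1759 in replicate 2. Its peaks were also the widest of the neighbourhood in each list, at 1245 and 1594 bp. At 125755407 to 125756199 the scores were 2006 and 1516, and at 125773762 to 125774443 they were 1125 and 1372. The other members of this cluster scored 293 and 837 at 125759650 to 125760094, and 370 and 521 at 125764854 to 125765449. Of the 27 shared regions of the neighbourhood, those with both scores at 1000 or more were these first 3 and one at 125366179 to 125366820, 36.5 kb above the upper end of Fbn1. That region had 1481 in replicate 1 and 1279 in replicate 2. Which of the genes between Fbn1 and Fgf7 these sites lie in was not analysed here.

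**Figure D4:**
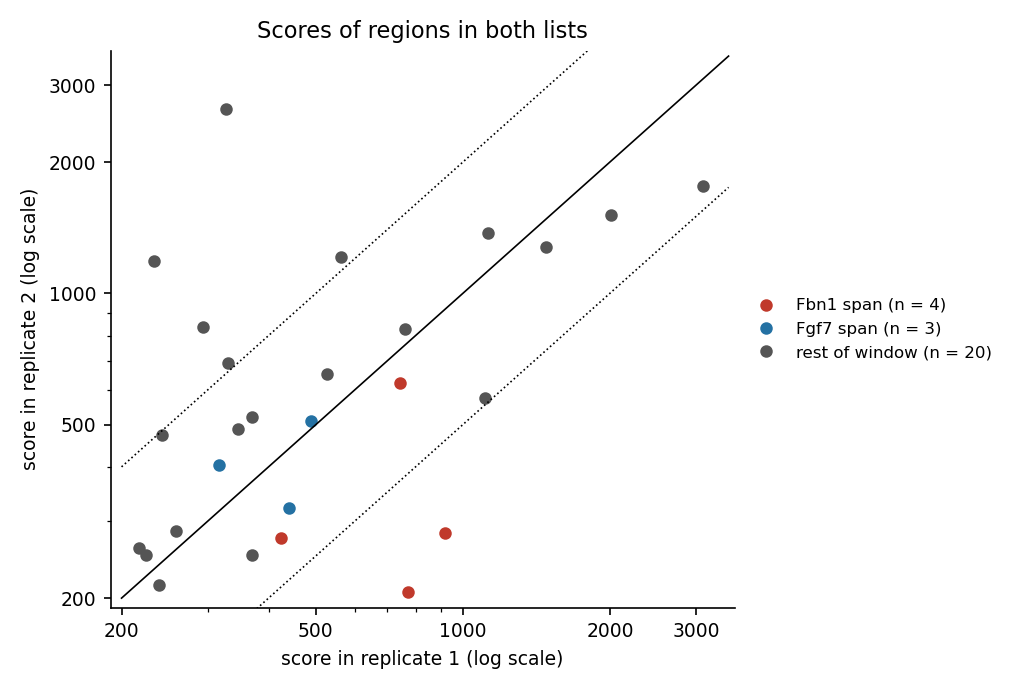
Score in replicate 2 against score in replicate 1, both on log scales, for the 27 regions in both lists, coloured by part, with the line of equality and dotted lines at 2-fold. The 4 Fbn1 regions lie to the right of the line, the 3 Fgf7 regions close to it, and the largest departure is a region outside the spans with 327 and 2647.

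Between the genes, 7 more regions were in both lists outside this cluster. The region at 125557361 to 125557814 had scores of 760 and 828. The highest peak there without a partner was in replicate 2, at 125374869 to 125375601, with a score of 1083, and lay 3.60 kb from the nearest replicate 1 peak. It opened the one run of regions in replicate 2 only, 3 regions up to 125493345. In replicate 1 the highest peak outside the gene spans without a partner lay below Fbn1, at 125101164 to 125101867, with a score of 1295. Replicate 1 had no peak from 125371269 to 125557360, over 186 kb.

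Partner peaks in the neighbourhood lay slightly farther apart by the median than those of the whole lists, with a like share within 100 bp. Their midpoints lay a median of 45.5 bp apart here and 37.5 bp over all pairs, and 81.5% of 27 and 81.3% of 9223 pairs were within 100 bp. Replicate 2 had the wider peak in 77.8% of pairs here and 70.6% of all. Scores of partners were within 2-fold in 74.1% of pairs here and 65.4% of all. The median log2 ratio was -0.14 (95% binomial interval of the median -0.49 to 0.40), with 11 pairs higher in replicate 1 and 16 in replicate 2. Spearman's rho between the scores was 0.43 across the 27 pairs and 0.38 over all pairs. This is a description across sites that share their 2 libraries, not across samples.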

How the data were processed

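The values used were the authors' deposited peak lists of the 2 NR6A1 samples, called per sample. Per the submitters' processing notes, which state no roles, Bowtie 0.12.7, MACS and mm9 were used. The MACS version, the control library and the peak threshold are not given in the sources used here. The deposited score of a peak starts just above 200 in both lists. It is the authors' value and was used only to describe and rank peaks within a list and to set partners side by side. Positions are written with the first base as 1. Peaks and merged regions were put in a part by their midpoint. Overlaps, Wilson intervals and medians were computed with Python 3.11.15, numpy 2.4.6, pandas 2.3.3 and scipy 1.17.1. The overlap code was tested on simulated lists. No test across samples was made. The members, lists and limits, among them a score of 1000, were chosen with earlier results of these data known. The regions named are all shared ones in the gene spans, the 10 shared ones with the highest better score in the rest, and the highest peak without a partner in each part and list. Others, such as the run of 8 in Fbn1, were chosen after their values were seen. Gene names and promoters came from RefSeq tables of GRCm38, and no position was moved between builds. Alternatives were other overlap rules, higher thresholds, equal list sizes, wider gene spans and single replicates.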

Additional observations from a re-analysis of the deposited data

How the results depend on the processing

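The alternatives gave 36 values of 8 results, of which 27 were a count within 1.5-fold or a share or median inside its 95% interval, 8 were not and 1 changed sign. Taking the upper 50% of each whole list by score left 10 regions in both lists in the neighbourhood in place of 27, 1 in Fbn1 in place of 4 and 1 in Fgf7 in place of 3. The share of peaks with a partner then was 40.0% in replicate 1 and 47.6% in replicate 2, and the median log2 score ratio was 0.08 in place of -0.14. That setting removes weak peaks and, by construction, partners of strong ones. With the replicate 1 list cut to the size of the replicate 2 list, 61.8% of replicate 2 peaks had a partner in place of 79.4%. The 95% interval of this 61.8% includes the share of the whole replicate 2 list found without the cut. Shares of the whole lists were not computed under the cut or under the upper 50% setting. Whether the neighbourhood's shares exceed those of the lists under these settings was therefore not tested. Widening the gene spans by 10 kb gave 7 regions in both lists in the Fbn1 part. The Fbn1 part held 20.0% of the neighbourhood's peaks over both lists, with 8.82% to 28.3% when either replicate was left out, and the Fgf7 part 10.0%, with 8.70% to 11.8%. By length the Fbn1 part is 20.0% of the neighbourhood and the Fgf7 part 6.0%. No paired analysis was possible because the vector samples, which share the replicate numbers, were not analysed here. With 3 to 13 peaks of a list in a gene span, shares there are known only within wide intervals, and read depth is unknown.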

Other observations

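The stretches of 1 Mb on either side of the neighbourhood held fewer peaks, which is no finding because the neighbourhood was chosen by peak number. From 124 to 125 Mb there were 13 replicate 1 peaks and 3 replicate 2 peaks, with 2 regions in both lists. From 126 to 127 Mb, beyond Fgf7, there were 28 and 11 peaks with 10 regions in both lists. There 90.9% of the replicate 2 peaks had a partner (95% Wilson interval 62.3 to 98.4%) and 39.3% of the replicate 1 peaks (23.6 to 57.6%). In the neighbourhood these shares were 79.4% (63.2 to 89.7%) and 58.7% (44.3 to 71.7%). The intervals of these 2 stretches overlap in both replicates. The first replicate 2 peak past the end of the neighbourhood, at 126128639 to 126129654, had a score of 3100. Below it, the last replicate 1 peak before the neighbourhood was at 124738104 to 124738778, with a score of 1304.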
